A study of Mus musculus with 6 samples.

Results

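The genes described here are 10 members of the interleukin-6 (IL-6) and interleukin-1 (IL-1) cytokine families and their receptors: Il6, Il11, Lif, Il6st and Osmr on the IL-6 side, and Il1a, Il1b, Il1rn, Il33 and Il1r1 on the IL-1 side. They were chosen by symbol, each matched to 1 of the 54232 genes in the count table, and the matching used no measured value, although the set was proposed with earlier results of these libraries known. RNA-Seq was performed on primary oviductal muscle cells from mice on day 2 (D2) of pregnancy, with 3 WT and 3 Pbrm1 cKO libraries. PBRM1 is a subunit of the PBAF form of the SWI/SNF chromatin remodeling complex, and cKO stands for conditional knockout.

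Both groups were females of 8 to 12 weeks that had been mated. Oviducts were digested with trypsin, collagenase and dispase, and the cells were plated in medium with serum for 4 h and then 2 h before RNA was taken, so both groups shared the enzymes and the short culture. The study's methods delete floxed Pbrm1 with a Cre expressed from the progesterone receptor locus, which limits deletion to cells that have expressed that receptor. The labels call the controls WT, whereas the study's legends name floxed animals without Cre. Whether a library held cells of 1 animal or of several was not stated in the sources used here. The p-values therefore judge group differences against the spread between these libraries, which may not be the spread between animals.

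IL-6 family cytokines signal through receptors built around gp130, the product of Il6st. IL-6 and IL-11 first bind a private receptor, while LIF and oncostatin M join gp130 to LIFR or OSMR, and all of them activate JAK kinases and STAT3. IL-1α and IL-1β act on the receptor encoded by Il1r1 together with the shared accessory protein encoded by Il1rap, which leads through MYD88 and IRAK kinases to NF-κB, and Il1rn encodes the antagonist that occupies the same receptor without signaling. IL-33 uses the related receptor ST2, encoded by Il1rl1, with the same accessory protein. In female reproductive tissues, LIF and IL-11 are known for their roles in implantation and in the decidual response.

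The libraries held 15390818 to 18947947 counts. Pbrm1 stood at 170, 183 and 172 CPM (read counts scaled to the depth of the library) in WT and at 43.5, 50.7 and 42.7 CPM in cKO, a log2 fold change of -1.94 (SE 0.064, adjusted p = 9.13e-11). Smooth muscle markers were present in every library, with a sum over 8 genes of 3591 to 3666 CPM in WT and 4549 to 5137 CPM in cKO. Cells of other types were present as well. The sum over 8 fibroblast markers was 4884 to 5453 CPM in WT and 7253 to 7559 CPM in cKO, and that over 12 leukocyte markers was 676 to 726 CPM in WT and 978 to 1051 CPM in cKO. Epithelial markers summed to 758 to 826 CPM in WT against 895 to 998 CPM in cKO, and mesothelial markers to 199 to 209 CPM against 152 to 153 CPM. Genes within these sums did not all move alike. Krt8 and Krt18 made up most of the epithelial sum, with WT means of 306 and 285 CPM and cKO means of 346 and 321 CPM. Epcam averaged 30.9 CPM in WT and 65.3 CPM in cKO, and Pax8 14.7 and 13.5 CPM. Of the mesothelial genes, Msln averaged 54.6 and 30.8 CPM, and Wt1 55.0 and 53.7 CPM. Endothelial markers summed to 293 to 314 CPM against 231 to 244 CPM, which rested on Kdr (means of 182 and 99.4 CPM). Without Kdr, a choice made after its values were seen, they summed to 119 to 129 CPM against 133 to 143 CPM. Genes known to respond to tissue dissociation summed to 343 to 384 CPM in WT and 490 to 538 CPM in cKO. In bulk RNA, a change in the number of cells of a type and a change in RNA per cell cannot be told apart.

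As examples of regulatory sequence for genes with unlike outcomes, the 250 bases before the RefSeq start site follow for 4 of the 10 genes. They are from GRCm38.p6, written 5′ to 3′ on the gene's strand. Il6 was higher in cKO and Il11 was lower. Of the neighbouring genes Il1a and Il1b, 1 was called and the other was not. The 4 are not the 4 with the largest changes, although Il1b (log2 fold change 1.52) and Il11 (-1.48) came next in size after Il33 (1.59). Of the 2 windows of Il11, the one whose start site lies inside the gene is shown, since the other held no match. Capitals mark matches to the motifs described next.
Il6 chr5:30012864-30013113 (+): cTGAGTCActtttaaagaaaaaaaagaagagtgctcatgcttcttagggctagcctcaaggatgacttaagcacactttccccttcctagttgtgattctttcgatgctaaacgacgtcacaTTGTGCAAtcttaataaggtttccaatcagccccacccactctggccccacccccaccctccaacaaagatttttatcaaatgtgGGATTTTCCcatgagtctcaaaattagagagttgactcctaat
Il11 chr7:4778142-4778391 (-): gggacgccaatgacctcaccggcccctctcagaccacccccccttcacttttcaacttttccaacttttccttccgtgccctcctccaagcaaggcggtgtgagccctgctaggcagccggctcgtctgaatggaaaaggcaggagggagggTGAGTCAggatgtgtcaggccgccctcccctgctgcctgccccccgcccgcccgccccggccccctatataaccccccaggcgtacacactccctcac
Il1a chr2:129309973-129310222 (-): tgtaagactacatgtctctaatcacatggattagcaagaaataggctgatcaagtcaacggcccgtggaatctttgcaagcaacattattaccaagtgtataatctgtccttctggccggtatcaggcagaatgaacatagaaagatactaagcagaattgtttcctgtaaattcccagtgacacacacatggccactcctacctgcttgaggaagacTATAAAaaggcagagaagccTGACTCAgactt
Il1b chr2:129371140-129371389 (-): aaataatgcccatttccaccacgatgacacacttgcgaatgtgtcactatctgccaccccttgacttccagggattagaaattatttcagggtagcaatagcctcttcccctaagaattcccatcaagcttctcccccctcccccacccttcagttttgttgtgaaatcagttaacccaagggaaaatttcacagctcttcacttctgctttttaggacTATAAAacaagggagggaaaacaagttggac

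Each motif was searched on both strands in 300-base windows that run on for 50 bases past the start site, and 15 such windows belonged to the 10 genes. The κB core GGANTTTCC, the site of NF-κB, was found in 1.25% of all 32851 promoter windows and in 1 of the 15, that of Il6, where it read GGATTTTCC and began 43 bases before the start site. The AP-1 motif TGANTCA, present in 7.81% of all windows, was found in 6 of the 15. These belonged to Il6, Il11, Lif, Il1a, Il1rn and Osmr, so genes that were higher, lower and not called all held it. In Il6 it began at position -249, in the printed window of Il11 at -98 and in Il1a at -12. A C/EBP motif of the form TTGCNNAA, present in 10.8% of all windows, was found in 3 of the 15, and in Il6 it read TTGTGCAA at -128. The TATA letters TATAAA were found in 13.6% of all windows and in 5 of the 15, and they began 31 bases before the start site of Il1b and 32 before that of Il1a. Neither the STAT motif TTCNNNGAA (8.30% of all windows) nor the cyclic AMP response element TGACGTCA (1.79%) was found in the 15. The Il6 window holds the letters of the 3 motifs κB, AP-1 and C/EBP together. The AP-1 match of Osmr began 3 bases past its start site and lies outside the length printed for the others.

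All 10 genes passed the filter on low counts, and 8 were called at an adjusted p under 0.05 (edgeR quasi-likelihood test, adjusted over 15376 genes). Of these, 7 were higher and 1, Il11, was lower in cKO. The same test called 43.7% of all genes tested, with 21.9% higher and 21.8% lower, so calls were common across the table. These shares are the background for every count of called genes in a list below. The median log2 fold change was 0.55 over the 10 genes and 0.0016 over all genes tested. For 9 of the 10 genes, all but Il1a, every library of 1 group lay above every library of the other, which also held for 53.5% of all genes tested.

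**Figure D1:**
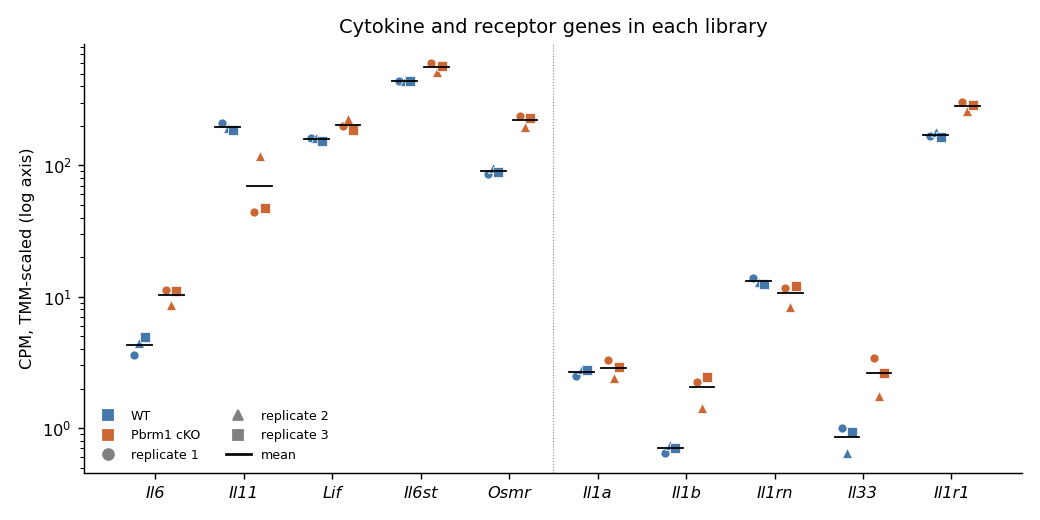
The 10 genes in each of the 6 libraries, in TMM-scaled CPM on a log axis, with IL-6 family genes on the left and IL-1 family genes on the right. Points are single libraries, with a shape for each replicate number, and lines are group means. Il11 is the gene with all cKO points well below the WT points, and its cKO replicate 2 (116.9 CPM) sits apart from the other cKO libraries (44.4 and 47.5 CPM).

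Il6 encodes the founding ligand of its family. Its level was 3.60, 4.44 and 4.92 CPM in WT, compared with 11.3, 8.59 and 11.1 CPM in cKO, which rests on 61, 83 and 84 reads against 201, 162 and 172. Every cKO library lay above every WT library. The means were 4.32 ± 0.664 and 10.3 ± 1.5 CPM (SD, n = 3 per group, as for all values below), a 2.39-fold difference with a log2 fold change of 1.25 (SE 0.147, adjusted p = 1.54e-05). Il6 lies at chr5:30013114-30019981 (GRCm38.p5, plus strand).

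Il11 encodes a cytokine that signals through IL-11 receptor alpha and gp130. It moved the opposite way, from 209.8, 190.9 and 187.2 CPM in WT to 44.4, 116.9 and 47.5 CPM in cKO. The WT libraries lay close together, whereas the cKO libraries did not, with replicate 2 falling between the other cKO libraries and WT. The mean fell from 196 ± 12.1 to 69.6 ± 41.0 CPM, which is 35.5% of the WT mean, with a log2 fold change of -1.48 (SE 0.25, adjusted p = 3.22e-04). Without cKO replicate 2, the log2 fold change was -2.09. Il11 (chr7:4772373-4782857, minus strand) was the most abundant of the 10 genes per length in WT and the fourth in cKO.

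Lif encodes leukemia inhibitory factor. Its level was 162, 160 and 155 CPM in WT and 198, 224 and 186 CPM in cKO. The groups did not overlap, and the difference was small, with a log2 fold change of 0.35 (SE 0.060, adjusted p = 3.49e-04). Lif lies at chr11:4257557-4272514 on the plus strand.

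Ratios of levels per length, taken within each library, describe how the makeup of the ligands shifted. Il11 exceeded Il6 by 70.2, 51.9 and 45.9 times in the WT libraries and by 4.74, 16.4 and 5.18 times in the cKO libraries. Il11 stood at 2.67 ± 0.123 times the level of Lif in WT and at 0.722 ± 0.354 times in cKO. Per length, Il11 was thus above Lif in all 3 WT libraries, while in cKO it was above Lif in replicate 2 (1.13 times) and below it in replicates 1 and 3 (0.486 and 0.551 times).

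Among the other ligands of the family, 5 of 9 genes were tested, of which 2 were called higher and 1 lower. Osm, which encodes oncostatin M, was low, at 1.06, 0.802 and 0.644 CPM in WT and 1.52, 1.54 and 1.22 CPM in cKO (log2 fold change 0.78, SE 0.28, adjusted p = 0.0352). Clcf1, which encodes a ligand of the CNTF receptor, was higher with a log2 fold change of 0.22 (SE 0.06, adjusted p = 0.00937). The call of Osm was lost under some alternatives, leaving out single libraries among them, with an adjusted p of up to 0.19. Cntf, Il27, Il31 and Ctf2 did not pass the filter on low counts.

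The receptor side rose where it was called. Il6st, the gene of the shared gp130 chain, stood at 438, 438 and 437 CPM in WT and 596, 516 and 567 CPM in cKO, with a log2 fold change of 0.36 (SE 0.052, adjusted p = 9.47e-05). The groups were separate, and 31.5% of all genes tested changed more in size. Osmr, the gene of the oncostatin M receptor chain, stood at 85.7, 95.8 and 89.6 CPM in WT and 239, 195 and 231 CPM in cKO. Its log2 fold change was 1.29 (SE 0.071, adjusted p = 1.49e-08), a 2.45-fold difference, and 3.72% of all genes tested changed more in size. The level of Osmr per length was 0.189 ± 0.0107 times that of Il6st in WT and 0.362 ± 0.0145 times in cKO, with no overlap between libraries. Il6st lies at chr13:112464070-112510086 on the plus strand and Osmr at chr15:6813577-6874969 on the minus strand.

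Among the other receptor chains of the family, 3 of 5 tested genes were called, all higher, beside 43.7% of all genes tested. Cntfr, the gene of the receptor for ciliary neurotrophic factor, was low in both groups, at 1.42, 1.02 and 0.585 CPM in WT and 3.09, 3.55 and 2.64 CPM in cKO (log2 fold change 1.62, SE 0.26, adjusted p = 2.45e-04). Il11ra1, the private receptor of IL-11, was at 18.3, 16.2 and 16.9 CPM in WT and 28.8, 27.9 and 29.1 CPM in cKO. Its log2 fold change was 0.74 (SE 0.073, adjusted p = 3.05e-06), so the receptor gene was higher in the libraries in which the ligand gene Il11 was lower. The mouse genome holds a near-identical copy of Il11ra1, and its reads may be split between copies. Lifr, the gene of the LIF receptor chain, differed less, with a log2 fold change of 0.26 (SE 0.081, adjusted p = 0.0176, and up to 0.0845 with a library left out). Il6ra, the private receptor of IL-6, which is named here after its values were seen, averaged 27.4 ± 3.34 CPM in WT against 23.2 ± 2.71 CPM in cKO. Its groups overlapped and it was not called (log2 fold change -0.24, SE 0.10, adjusted p = 0.0693).

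Behind the receptors, 5 of 8 JAK-STAT genes were called, 4 of them higher, beside 43.7% of all genes tested. Stat3, the transcription factor gene of the pathway, was at 214, 212 and 220 CPM in WT and 314, 287 and 308 CPM in cKO (log2 fold change 0.49, SE 0.046, adjusted p = 1.95e-06). The kinase genes Jak2 and Jak1 were higher with log2 fold changes of 0.58 and 0.27. Ptpn11, which encodes the phosphatase SHP2 that docks on gp130, was lower with a log2 fold change of -0.16 (adjusted p = 0.0487, and up to 0.237 under the alternatives) and overlapping groups.

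Of 11 genes known as feedback or response genes of STAT3, 5 were called and all 5 were higher. This share of calls was near the 43.7% of all genes tested, of which 21.9% were higher. Socs3, the feedback inhibitor that binds gp130, was at 24.9, 23.4 and 22.2 CPM in WT and 62.8, 47.6 and 59.96 CPM in cKO, with a log2 fold change of 1.27 (SE 0.095, adjusted p = 2.53e-07). Cebpd, a transcription factor gene of the acute-phase response, rose from 6.21 ± 1.12 to 14.2 ± 2.64 CPM (log2 fold change 1.19, SE 0.15). Bcl3, which encodes an atypical IκB protein, rose from 6.39 ± 0.773 to 13.1 ± 2.25 CPM (log2 fold change 1.03, SE 0.14). Il4ra, the gene of the IL-4 receptor chain, rose by a log2 fold change of 0.71 and Timp1, which encodes a metalloproteinase inhibitor, by 0.16. The other 6 genes of the list were not called, so the list was divided, with a median log2 fold change of 0.16.

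**Figure D2:**
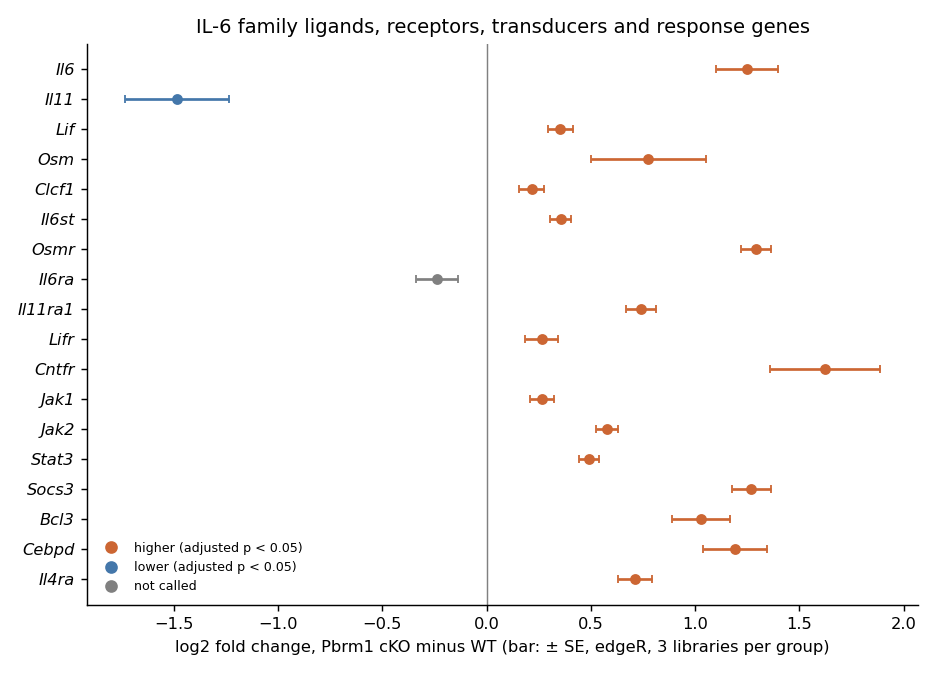
Log2 fold changes (cKO minus WT) of IL-6 family ligands, receptors, JAK-STAT genes and response genes, with bars of ± 1 SE from the edgeR test. Orange marks genes called higher, blue genes called lower and grey genes not called. Il11 (-1.48) lies far to the left of the other genes, Cntfr (1.62), Osmr (1.29), Socs3 (1.27) and Il6 (1.25) lie to the right, and Il6ra (-0.24) is grey.

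On the IL-1 side, the ligand genes were low in all libraries and did not move alike. Il1b was at 0.650, 0.749 and 0.703 CPM in WT and 2.25, 1.43 and 2.44 CPM in cKO, from 11, 14 and 12 reads against 40, 27 and 38. The groups were separate, at means of 0.700 ± 0.0493 and 2.04 ± 0.537 CPM, a 2.92-fold difference with a log2 fold change of 1.52 (SE 0.286, adjusted p = 7.51e-04). Il1a, its neighbour on chromosome 2, was at 2.48, 2.83 and 2.75 CPM in WT and 3.32, 2.39 and 2.90 CPM in cKO. The groups overlapped, and its log2 fold change of 0.09 had a 95% interval from -0.30 to 0.48 (adjusted p = 0.735). Il1a lies at chr2:129299610-129309972 and Il1b at chr2:129364570-129371139, both on the minus strand.

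Il1rn, the gene of the IL-1 receptor antagonist, lies elsewhere on the same chromosome (chr2:24336853-24351494, plus strand). It was at 13.8, 13.0 and 12.4 CPM in WT and 11.8, 8.33 and 12.2 CPM in cKO. The groups did not overlap, yet the difference missed the threshold, with a log2 fold change of -0.29 (95% interval -0.57 to -0.02, adjusted p = 0.0788). It passed under 2 of 15 alternatives. Per length, Il1rn stood at 1.56, 1.29 and 1.27 times the sum of Il1a and Il1b in the WT libraries and at 0.742, 0.768 and 0.799 times in the cKO libraries. The ratio was lower in every cKO library than in every WT library, as a description with no test. Whether it lies above or below 1 rests on the deposited gene lengths, 5535 bases for Il1rn against 1974 for Il1a and 1907 for Il1b. In reads not divided by length, Il1rn exceeded Il1a and Il1b together in every library of both groups, with 234, 244 and 212 reads in WT and 209, 157 and 189 in cKO.

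Il33 encodes a nuclear cytokine released from damaged cells. It was at 1.00, 0.642 and 0.937 CPM in WT and 3.43, 1.75 and 2.64 CPM in cKO, from 17, 12 and 16 reads against 61, 33 and 41. Every cKO library was above the WT libraries, with means of 0.861 ± 0.193 and 2.61 ± 0.840 CPM, a 3.03-fold difference and a log2 fold change of 1.59 (SE 0.299, adjusted p = 7.24e-04). Il33 (chr19:29925114-29960718, plus strand) had the highest log2 fold change of the 10 genes with all 6 libraries. That of Il1b was close, at 1.52 (SE 0.286), so the order of Il33 and Il1b is not resolved. The SE of Il33 was above those of Osmr and Il1r1, and a cKO library held 61 of its reads at most.

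Leukocytes are a known source of IL-1β, and the sum of leukocyte markers was higher in cKO, as Il1b was. Within cKO the sum and Il1b did not follow the same order of libraries. The marker sum was 978, 1051 and 996 CPM and Il1b 2.25, 1.43 and 2.44 CPM, so replicate 2 had the highest sum and the lowest Il1b. Most of that sum was the single gene Lyz2, at 595, 663 and 605 CPM. Single markers, looked at after the sum was seen, were divided. Adgre1 and Csf1r were also highest in replicate 2, Cd68 and Mrc1 were lowest there, and Ptprc, Itgam and Tyrobp were highest in replicate 3. Of the 12 leukocyte markers, 9 were tested and 8 were called higher, none lower. The tested marker that was not called, the neutrophil gene S100a8, was low and went the other way. It averaged 0.839 ± 0.385 CPM in WT and 0.427 ± 0.182 CPM in cKO, and the groups did not overlap (log2 fold change -0.999, SE 0.43, adjusted p = 0.0790). Ptprc, the pan-leukocyte gene, averaged 15.0 CPM in WT and 30.6 CPM in cKO, and the macrophage gene Mrc1 averaged 12.1 and 37.6 CPM. These were the largest changes among the called leukocyte markers. More abundant markers changed less, with WT and cKO means of 453 and 621 CPM for Lyz2, 70.8 and 106 CPM for Csf1r, 53.9 and 73.9 CPM for Adgre1, and 48.3 and 69.4 CPM for Cd68. The T-cell gene Cd3e, the B-cell gene Cd79a and the neutrophil gene S100a9 were near 0 and not tested. Of the 8 fibroblast markers, 5 were called higher and 1 lower. The part of leukocytes and fibroblasts in the levels of Il1b, Il33, Il6 and Il1r1 was not tested.

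Of the other 6 IL-1 family ligands, 2 were tested. Il1f6, which encodes IL-36α, was at 1.595, 1.76 and 2.28 CPM in WT and 2.47, 3.18 and 3.02 CPM in cKO (log2 fold change 0.62, SE 0.20, adjusted p = 0.0237, and up to 0.119 under the alternatives). Il18, the other tested ligand, named here as the only one not called, averaged 1.54 ± 0.219 CPM in WT against 1.99 ± 0.353 CPM in cKO. Il1f5, Il1f8, Il1f9 and Il1f10, which lie near Il1rn and Il1f6 on chromosome 2, had too few reads to test.

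Il1r1, the signaling receptor of IL-1, was at 166, 180 and 164 CPM in WT and 303, 260 and 288 CPM in cKO. The groups were far apart, with means of 170 ± 8.29 and 284 ± 21.7 CPM and a log2 fold change of 0.74 (SE 0.058, adjusted p = 3.93e-07). Il1rap, the accessory chain that it shares with the IL-33 and IL-36 receptors, was at 27.8, 27.2 and 32.0 CPM in WT and 45.7, 36.6 and 47.4 CPM in cKO (log2 fold change 0.57, SE 0.095, adjusted p = 2.70e-04). Both chains of the IL-1 receptor were therefore higher in the same libraries as Il1b. Of the 8 IL-1 family receptors and decoys other than Il1r1, with Il1rap counted among them, 3 were called higher and 2 lower.

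Il1r1 (chr1:40225080-40317257, plus strand) is the second of 6 receptor genes of the family that lie in a row on chromosome 1, all on the plus strand and within 478 kb, in the order Il1r2, Il1r1, Il1rl2, Il1rl1, Il18r1 and Il18rap. The direction of change was divided along the row. The first 3 genes were higher in cKO. Il1r2, which encodes a decoy receptor for IL-1, was low, at 0.945, 1.39 and 1.23 CPM in WT and 2.59, 1.54 and 1.93 CPM in cKO (log2 fold change 0.75, SE 0.26, adjusted p = 0.0331, and up to 0.173 under the alternatives). Il1rl2, the receptor gene for IL-36 cytokines, was at 44.2, 42.9 and 43.4 CPM in WT and 71.6, 61.2 and 66.2 CPM in cKO (log2 fold change 0.61, SE 0.062, adjusted p = 4.31e-06).

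None of the remaining 3 genes in the row was called higher. Il1rl1, the gene of the IL-33 receptor ST2, was at 426, 421 and 434 CPM in WT and 172, 233 and 181 CPM in cKO. It was lower in every cKO library, with a log2 fold change of -1.13 (SE 0.085, adjusted p = 2.79e-07), while its ligand gene Il33 was higher. Per length, Il1rl1 stood at 2.32 ± 0.142 times the level of Il1r1 in WT and at 0.643 ± 0.161 times in cKO, so the order of these receptor genes was turned. Il18r1, the gene of the IL-18 receptor, overlapped between groups at 10.2 ± 1.63 and 9.50 ± 0.577 CPM and was not called (log2 fold change -0.11, adjusted p = 0.519). Il18rap, its accessory chain, fell from 4.90, 4.49 and 4.22 CPM in WT to 1.35, 2.07 and 2.32 CPM in cKO (log2 fold change -1.25, SE 0.19, adjusted p = 1.55e-04).

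The window reaching 500 kb to either side of the row, chosen after the row's values were seen, held 6 further tested genes. Of these, Map4k4 (log2 fold change 0.20) and Tmem182 (1.44) were called higher, Rnf149 (-0.22) and Slc9a2 (-0.83) lower, and Mfsd9 and Gm38070 were not called. The genes next to the row therefore had no common direction.

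**Figure D3:**
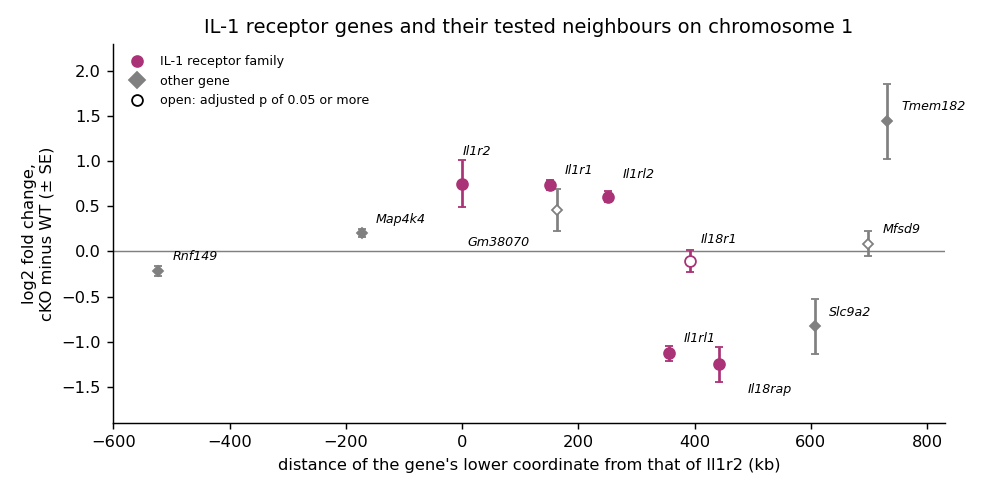
Log2 fold change (cKO minus WT, bars ± 1 SE) of the 6 IL-1 receptor family genes (circles) and 6 other tested genes (diamonds) against the distance in kb of their lower coordinate from that of Il1r2. Open symbols were not called. Il1r2, Il1r1 and Il1rl2 lie between 0.61 and 0.75, and Il1rl1 and Il18rap at -1.13 and -1.25.

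**Figure D4:**
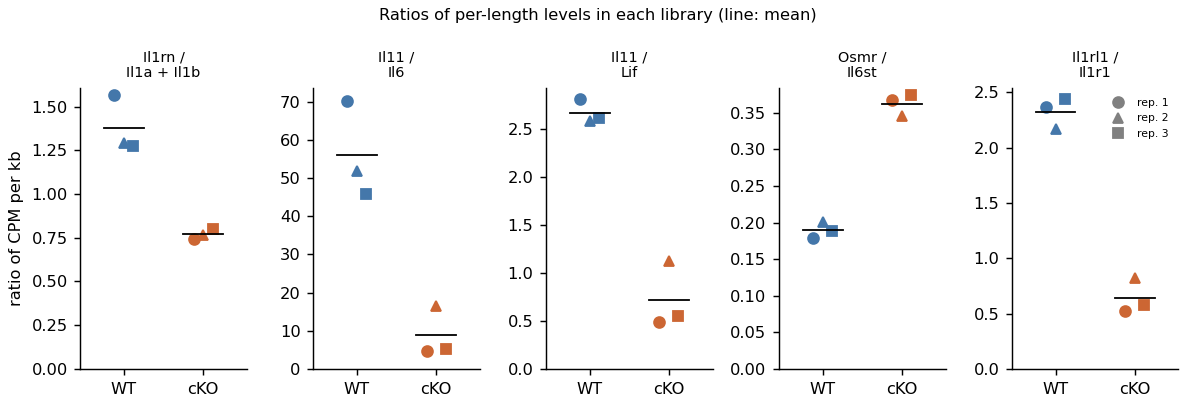
Ratios of per-length levels in each library, with a shape for each replicate number and a line for the group mean, on linear axes from 0. In all 5 panels the WT and cKO libraries are apart. In cKO, Osmr relative to Il6st was higher, and the other 4 ratios were lower.

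Few of the genes that process and release IL-1 were called. Of 7 inflammasome and processing genes, 1 was called. This was Pycard, which encodes the adaptor ASC, at 2.78, 3.10 and 3.69 CPM in WT and 5.62, 4.67 and 5.53 CPM in cKO (log2 fold change 0.72, SE 0.16, adjusted p = 0.00214). The list's median log2 fold change was 0.024.

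Of the 19 genes that carry the signal from the IL-1 receptor to NF-κB, 13 were called, 9 higher and 4 lower. Myd88, the adaptor of the receptor complex, was at 51.9, 51.9 and 49.4 CPM in WT and 79.5, 72.1 and 78.6 CPM in cKO (log2 fold change 0.59, SE 0.055, adjusted p = 1.96e-06). Irak3, which encodes an inhibitory member of the IRAK family, was at 15.5, 16.5 and 14.9 CPM in WT and 29.0, 17.8 and 26.7 CPM in cKO (log2 fold change 0.64, SE 0.14), with replicate 2 again nearest to WT. Irak4, the first kinase of the chain, differed by a log2 fold change of 0.40 and Relb, an NF-κB subunit gene, by 0.50. Tab3, which encodes an adaptor of the kinase TAK1, was lower with a log2 fold change of -0.40. Changes in these genes were smaller than those of Il6, Il1b or Il33.

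Among 8 genes known as feedback regulators of NF-κB, 4 were called, all higher. This share of calls was near the 43.7% of all genes tested, of which 21.9% were higher. Nfkbiz, which encodes IκBζ, a nuclear cofactor needed for induction of Il6, was at 31.8, 33.0 and 29.3 CPM in WT and 66.2, 54.2 and 67.1 CPM in cKO (log2 fold change 0.99, SE 0.082, adjusted p = 6.25e-07). Zc3h12a, the gene of the nuclease Regnase-1 that degrades Il6 mRNA, was higher by 0.46 on the log2 scale (adjusted p = 0.0323, and up to 0.143 under the alternatives) with overlapping groups. Tnfaip3, which encodes the NF-κB inhibitor A20, was higher by 0.42 and Birc3 by 0.39. Of 7 other regulators of Il6 mRNA stability, 1 was higher and 1 lower. Zfp36l1, which encodes a protein that promotes mRNA decay, differed by a log2 fold change of 0.25, and Rc3h1, which encodes Roquin-1, by -0.31.

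Genes known to be induced by IL-1 were called in both directions. Of 16 tested genes, 11 were higher and 3 lower, and the median log2 fold change was 0.64. The neutrophil chemokine gene Cxcl1 was at 5.08, 3.90 and 4.98 CPM in WT and 23.1, 14.1 and 24.9 CPM in cKO, with a log2 fold change of 2.15 (SE 0.20, adjusted p = 1.54e-06). Its relatives Cxcl5 and Cxcl2 were higher by 1.52 and 1.23 on the log2 scale. Mmp3, the gene of the matrix protease stromelysin-1, rose from 23.5, 20.3 and 18.7 to 82.2, 58.4 and 87.6 CPM (log2 fold change 1.86, SE 0.13). Ptgs2, which encodes the inducible cyclooxygenase of prostaglandin synthesis, went the other way, from 1828 ± 25.5 to 659 ± 151 CPM (log2 fold change -1.47, SE 0.11, adjusted p = 2.56e-07). The other lower genes, named here after their values were seen, were the hyaluronan synthase genes Has1 (-0.63) and Has2 (-0.54).

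Over the 11 lists of pathway genes together, 96 of 107 genes were tested, of which 44 were called higher and 12 lower. Their median log2 fold change was 0.21. Over all genes tested, 21.9% were called higher and 21.8% lower, and the median was 0.0016. These lists were compiled with earlier results of the same libraries known, and no test of a list as a whole was made.

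**Figure D5:**
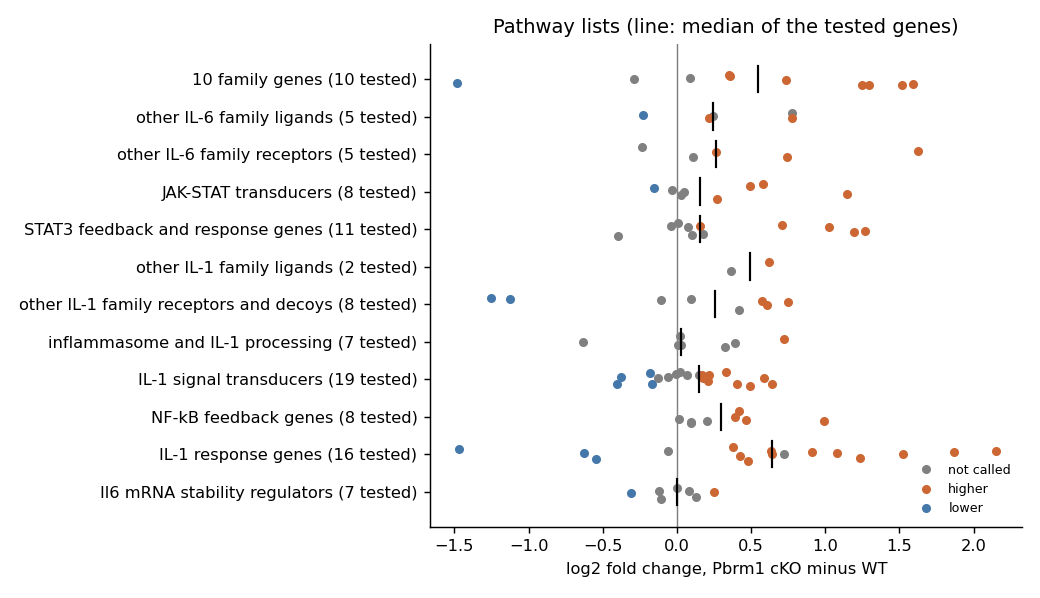
Log2 fold changes (cKO minus WT) of the tested genes in the set of 10 and in 11 pathway lists, 1 point per gene, with a line at each list's median. Orange points were called higher, blue lower and grey not called. The IL-1 response list spans the widest range, from Ptgs2 at -1.47 to Cxcl1 at 2.15.

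Per kb of gene length, the order of mean levels in WT, given as RPKM, which is CPM per kb, was Il11 (97.4), Il6st (39.4), Lif (36.5), Il1r1 (26.7), Osmr (7.46), Il1rn (2.37), Il6 (1.78), Il1a (1.36), Il1b (0.367) and Il33 (0.298). In WT, only the neighbours Il1b and Il33 overlapped in their library values. In cKO the order was Il6st (50.4), Lif (46.6), Il1r1 (44.6), Il11 (34.6), Osmr (18.3), Il6 (4.25), Il1rn (1.94), Il1a (1.45), Il1b (1.07) and Il33 (0.903). There Il6st, Lif and Il1r1 each overlapped the next gene in the order, and so did Il1rn, Il1a and Il1b. In both groups the transcripts of receptors and of Lif and Il11 were far more abundant than those of Il6 and of the IL-1 ligands. The order of Il6 and Il1rn was turned between the groups.

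Replicate 2 of the cKO group was the library closest to the WT mean for 7 of the 8 called genes. The exception was Lif, for which it was replicate 3. The same replicate was closest for 42 of the 56 called pathway genes (75.0%) and for 56.6% of the 6723 genes called in the whole table. The Pbrm1 level was 50.7 CPM in cKO replicate 2, against 43.5 and 42.7 CPM in replicates 1 and 3. A link between this level and the position of the library was not tested. Without cKO replicate 2, the log2 fold change was 1.73 for Il1b and 1.83 for Il33, and all 8 genes kept their call.

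As a description of which genes varied most like Il6, the highest Pearson correlations of log2 CPM over the 6 libraries, among 10605 protein-coding genes of at least 5 CPM on average, were those of Txndc12 (0.999), Tspan31 (0.998), Ggta1 (0.998), Calu (0.998) and Nenf (0.998). Correlations above 0.95 were reached by 10.1% of those genes, and the points fall into 2 groups. For Il33 the genes were Pex7 (0.995), Zmynd8 (0.994), Elf1 (0.993), Hipk3 (0.991) and Sec16b (0.990), and 4.51% of genes exceeded 0.95. These genes differed less between the groups than Il6 and Il33 did, with log2 fold changes between 0.19 and 0.57.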

How the data were processed

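RNA-Seq libraries were made from total RNA with a stranded kit. Per the labels and the file header, the authors trimmed reads with cutadapt, aligned them with HISAT2 and counted them per gene with featureCounts 1.6.4 (GENCODE M18, GRCm38.p5). The deposited values are raw counts, with gene length in a column of its own. Symbols were taken from GENCODE M21 for 54079 of 54232 genes (99.7%). The 10 genes and all lists were chosen with earlier results of these data known.

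Counts were tested with edgeR 4.0.16 in R 4.3.3: filterByExpr (15376 genes passed), TMM scaling, the quasi-likelihood F-test between 3 WT and 3 cKO libraries, two-sided, with Benjamini-Hochberg adjustment over all genes tested and a threshold of 0.05. The script was tested on simulated data. SE is the log2 fold change divided by the root of F. The common biological coefficient of variation was 5.32%. CPM are TMM-scaled, and RPKM divides them by the deposited length and serves only to compare levels between genes. Depth allows a level of up to 0.159 to 0.193 CPM per library for a count of 0 (3 counts), for counting error only.

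Named were the 10 genes and Pbrm1, both gene clusters, and up to 5 called genes per list with a mean of at least 1 CPM and the largest change. No 2 libraries of a group agreed within sampling noise (chi-square per gene of 1.31 to 1.60). Correlations of deviations between WT and cKO libraries of the same number were -0.049, 0.085 and 0.193, so the numbers were not taken as pairs. Alternatives were DESeq2 1.42.0, limma-voom 3.58.1, 3 other scalings, 2 other filters, a replicate block, leaving out each library and a threshold of 0.01. An alignment of the proteins was not run. Some genes of the lists are counted but not reported here by name.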

Additional observations from a re-analysis of the deposited data

How the results depend on the processing

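All 8 called genes kept their direction and their call under all 15 alternatives, and Il1rn passed the threshold in 2 of them (log2 fold change -0.30 with no filter on low counts, -0.39 without cKO replicate 3). The log2 fold change of Il1a turned to -0.036 without cKO replicate 1 and ranged from -0.036 to 0.22 when 1 library was left out. That of Il11 ranged from -2.09 to -1.24 when 1 library was left out. Over all genes, 5307 to 7054 were called across the alternatives at a threshold of 0.05. DESeq2 called 5307 genes, of which 5243 were shared with edgeR, and a replicate block called 6908, of which 6617 were shared. The block changed the call of none of the 10 genes, and raised the calls among inflammasome genes from 1 to 2, as did limma-voom and no filter. Leaving out 1 library gave 1 to 2 calls in that list. Calls among other IL-6 ligands went from 3 to 1 at a threshold of 0.01 and ranged from 1 to 2 when 1 library was left out. Calls among other IL-1 ligands went from 1 to 2 with no filter, to 0 at 0.01, and ranged from 0 to 1 when 1 library was left out. Calls among regulators of Il6 mRNA ranged from 2 to 5 when 1 library was left out, with 5 without cKO replicate 2. Of 41 other genes under the naming rule, 7, among them Il1f6, Il1r2, Lifr, Osm, Ptpn11 and Zc3h12a, lost their call under at least 1 alternative, in 39 of 615 values in all, and none was reversed. The cause of these changes was not tested. Low counts limit Il1b, Il33, Osm, Cntfr and Il1r2.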
